A study of Mus musculus with 39 samples.

Results

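The response of the liver to a Western diet was examined in mice without Cd163, in 19 of the 39 liver libraries of the study. The 15 knockout livers on Western diet were compared with the 4 knockout livers on chow, and every gene with enough reads was tested. All 19 mice were male Cd163 knockouts, so the deletion is shared by both diets and is not what the comparison tests. They came from heterozygous C57BL/6NTac (CD163tm1(KOMP)Vlcg) parents. Diets began at 6 weeks of age and lasted 8 weeks. The Western diet mice drank water with fructose, so solid diet and sugared water were changed together and cannot be told apart. Chow mice ate an Altromin maintenance diet with normal water. The other 20 libraries were wildtype littermates, 15 on Western diet and 5 on chow, and served for the shared estimate of spread and for a comparison of the 2 genotypes. Libraries are named by the letter of the replicate in their labels, such as Western diet M or chow D. Nothing in the labels says which mice shared a cage, a litter or a day.

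The liver both makes and disposes of cholesterol. When membrane cholesterol is low, the transcription factor SREBP2 is cut free and switches on the enzymes of the mevalonate and sterol pathways. When oxysterols accumulate, the nuclear receptor LXR raises the sterol exporters Abcg5 and Abcg8 and the lipogenic factor SREBP1c, which Srebf1 encodes. Fructose is broken down in hepatocytes by ketohexokinase and its partners and feeds fatty acid synthesis, while fatty acids are burned under the nuclear receptor PPARA. CD163 itself is the macrophage receptor for haptoglobin-haemoglobin complexes, and in liver it is carried by Kupffer cells.

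Total counts per library ran from 8578865 to 30438808 in Western diet knockouts and from 11410535 to 17816848 in chow knockouts. Cd163 was checked first. It lay between 0 and 0.661 CPM (counts scaled to a common library size, with TMM scaling) in the Western diet knockouts and between 0.44 and 0.746 CPM in the chow knockouts, against 2.59 to 15.8 CPM in the wildtype livers on Western diet and 4.95 to 13.1 CPM in those on chow. The genotype labels and Cd163 therefore went together in all 39 libraries. Hepatocyte markers summed to between 52032 and 77407 CPM over the Western diet knockouts and between 57250 and 79332 CPM over the chow knockouts.

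The diet labels were less clear. A scale was made from wildtype livers alone, from the 64 genes that passed at 2-fold or more between the diets there, with 0 at the mean of wildtype chow and 1 at the mean of wildtype Western diet. On it 14 of the 15 Western diet knockouts lay between 0.818 and 1.26, but Western diet M lay at 0.0419. Of the chow knockouts, A, B and C lay at -0.00562, 0.0615 and -0.0592, but chow D lay at 0.953. Each of these 2 livers thus stood with the other diet, while Cd163 was as low in them as in other knockouts. In wildtype, Western diet A lay at 0.289 and chow A at 0.595. Whether tubes or labels were exchanged, or whether these mice ate differently, was not tested. Western diet M and chow D kept their labels throughout, and neither was moved to the other group. Because they were picked by the levels of diet genes, values without them describe the other 17 livers and are no independent support for a diet effect.

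**Figure D1:**
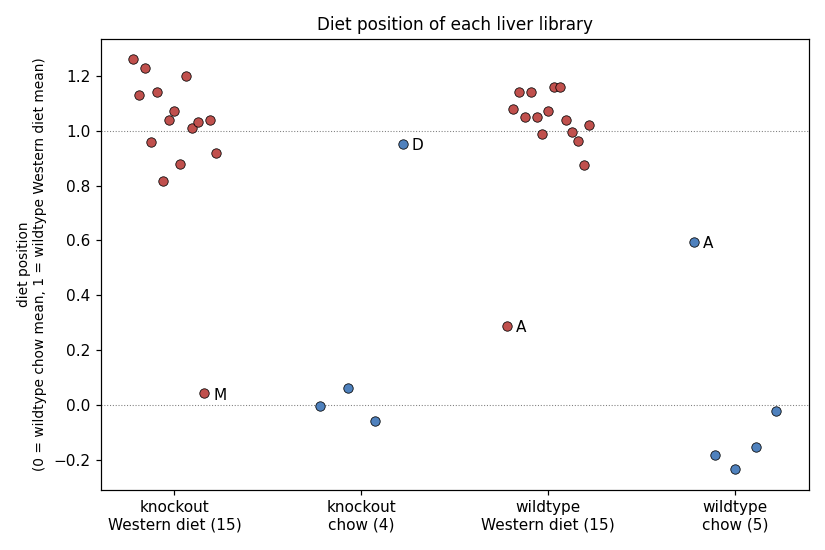
Position of each liver library between the diets (y axis, no unit; 0 is the wildtype chow mean and 1 the wildtype Western diet mean, over 64 genes), by group on the x axis, 1 point a library. Western diet M of the knockouts sits at 0.0419 beside the chow livers, and chow D at 0.953 beside the Western diet livers.

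With all libraries as labelled, 1 of 15296 genes passed an adjusted p of 0.05 in the knockouts (edgeR quasi-likelihood test with Benjamini-Hochberg adjustment). No gene passed as higher on Western diet, a background of 0%, and 1 passed as lower, a background of 0.00654%. At an unadjusted p under 0.05 there were 2943 genes, 19.2% of those tested. Other tools passed more: DESeq2 called 164 genes higher and 66 lower, and limma voom with sample weights called 2.65% of genes higher and 2.61% lower. The 1 gene was Adgrf1, which encodes an adhesion G protein-coupled receptor. It had 0 to 2.53 CPM in 14 Western diet livers, with a median of 0.717, and 4.55 CPM in Western diet M, against 12.5, 9.03 and 13.5 CPM in chow A, B and C and 0.647 CPM in chow D. All but 1 of the chow livers were above every Western diet liver. On the log2 scale it changed by -2.83 (SE 0.52, adjusted p 0.0479 by edgeR). It did not pass without a filter on low counts (adjusted p 0.0706) or in the 19 knockouts alone (adjusted p 0.221). Nor did it pass with the replicate letter as a block (adjusted p 0.232). It also lost its call in 14 of the 19 fits that left out 1 knockout liver. DESeq2 gave it a log2 fold change of -2.82 but no adjusted p, while limma voom passed it (adjusted p 0.00315). Without Western diet M and chow D it changed by -3.52 (adjusted p 3.47e-05 by edgeR).

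Without Western diet M and chow D, 2296 of 15539 genes passed, 1242 higher on Western diet (7.99%) and 1054 lower (6.78%), or 14.8% in either direction. The median log2 fold change over all genes tested was 0.0063. Of the 2296 genes, 2288 were also tested with all 19 livers, and all 2288 had the same sign there, 2029 of them with an unadjusted p under 0.05. These fits share 17 of their livers, so the same sign is no second observation. Fold changes of 2 or more were seen in 203 of the genes that rose and 246 of those that fell. In 810 of the 2296 genes the 14 Western diet livers did not overlap chow A, B and C, all above them where the gene rose and all below them where it fell. Over all genes tested, 5.85% had no overlap of this kind in either direction. With 3 chow livers left, single ones weighed heavily: 393 genes passed without chow B and 972 without chow C. Of the 2296 genes, 16.3% still passed without chow B and 38.6% without chow C. Many results that passed whichever of the 17 livers was left out are therefore named as such. The absence of such a remark does not mean that a call was lost. Adgrf1, Apoa4, BC030867, Csad, Fabp2, Khk, Mttp, Pcx, Scp2, Smim14, Tap1 and Tkfc also passed in all of these fits.

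The members of 39 gene lists, sorted by function or cell type, are described next, with 704 of their 759 genes tested. With all 19 livers no member of any list passed. Without the 2 livers 103 members rose and 44 fell, 20.9% of those tested, against 14.8% of all genes. A share near these is no result about a list. In the paragraphs that follow, rose, fell and passed refer to the fit without the 2 livers, and adjusted p-values are edgeR's over all genes.

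Most enzymes that make cholesterol fell. Of the 9 mevalonate pathway enzymes, all tested, 8 fell and none rose, with a median log2 fold change of -1.91 without the 2 livers and -1.34 with all 19. Of the 11 enzymes from squalene to cholesterol 9 fell and none rose, with medians of -1.48 and -1.06. Of these 17, 12 kept their call in every fit that left out 1 more liver. Among the 12 were Fdft1, Fdps, Idi1 and Mvk of the first list and all of Cyp51, Dhcr7, Lss, Msmo1, Nsdhl, Sqle and Tm7sf2 of the second. Because these genes are textbook targets of SREBP2, which binds promoters together with the CCAAT-binding factor NF-Y, the 250 bases before the start are shown for the 5 members with the smallest p that had an entry in RefSeq's promoter table. They are written 5′ to 3′ on the gene's strand in the GRCm38.p6 build, not the GRCm39 build of the counts. Capitals mark the letters CCAAT on either strand (ATTGG on the shown one). Cyp51, which encodes lanosterol 14-alpha-demethylase, is at chr5:4104698-4104947 on the minus strand, and Msmo1, a sterol C4-methyl oxidase, is at chr8:64733579-64733828 on the minus strand. Lss, lanosterol synthase, is at chr10:76531355-76531604 on the plus strand, and Mvk, mevalonate kinase, is at chr5:114444019-114444268 on the plus strand. Nsdhl, a sterol dehydrogenase, is at chrX:72918271-72918520 on the plus strand.
Cyp51: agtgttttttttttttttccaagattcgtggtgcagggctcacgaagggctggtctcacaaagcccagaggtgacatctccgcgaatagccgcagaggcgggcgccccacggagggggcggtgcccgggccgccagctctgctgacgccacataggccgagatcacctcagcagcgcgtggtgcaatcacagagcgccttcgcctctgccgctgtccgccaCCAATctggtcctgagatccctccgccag
Msmo1: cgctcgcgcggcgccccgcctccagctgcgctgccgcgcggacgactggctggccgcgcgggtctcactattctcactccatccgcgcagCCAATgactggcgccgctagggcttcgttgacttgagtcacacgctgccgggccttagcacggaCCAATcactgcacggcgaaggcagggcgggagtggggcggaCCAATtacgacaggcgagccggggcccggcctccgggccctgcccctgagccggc
Lss: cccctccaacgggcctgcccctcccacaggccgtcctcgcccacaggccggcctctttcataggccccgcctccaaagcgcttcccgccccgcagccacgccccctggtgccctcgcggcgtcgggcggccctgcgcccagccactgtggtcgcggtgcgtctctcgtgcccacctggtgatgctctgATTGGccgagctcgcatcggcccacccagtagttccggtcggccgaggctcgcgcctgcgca
Mvk: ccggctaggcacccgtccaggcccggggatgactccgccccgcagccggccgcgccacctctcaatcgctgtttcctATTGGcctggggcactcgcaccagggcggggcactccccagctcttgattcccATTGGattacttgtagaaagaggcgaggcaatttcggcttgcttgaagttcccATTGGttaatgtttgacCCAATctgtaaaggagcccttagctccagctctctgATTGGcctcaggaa
Nsdhl: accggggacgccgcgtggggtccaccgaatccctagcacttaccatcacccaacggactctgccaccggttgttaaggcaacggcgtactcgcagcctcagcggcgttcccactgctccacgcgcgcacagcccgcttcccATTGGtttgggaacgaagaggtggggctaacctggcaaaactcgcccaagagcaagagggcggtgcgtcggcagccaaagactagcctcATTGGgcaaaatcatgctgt

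Of the 20 enzymes, 15 had an entry and 14 of these held CCAAT, against 37.5% of the 27025 genes in the table. The sterol response letters TCACNCCAC, searched on both strands, were in 1 of the 15 and in none of the 5 shown, against 1.22% of those genes. Neither motif contains the other. A match is a description of the letters and says nothing of binding in these livers.

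Sqle, the squalene epoxidase that starts the sterol-specific steps, changed most. It had 1.42 to 6.12 CPM in 14 Western diet livers, with a median of 2.80, and 89.7 CPM in Western diet M, against 62.2, 112 and 71.9 CPM in chow A, B and C and 3.29 CPM in chow D. The groups did not overlap apart from the 2 livers, which lay fully on the other side. The change on the log2 scale was -4.53 without the 2 livers (SE 0.67, adjusted p 0.000205 by edgeR) and -2.75 with all 19 (SE 0.85, adjusted p 0.124). Msmo1 had 19.8 to 45.1 CPM with a median of 26.4, and 258 CPM in Western diet M, against 157, 273 and 158 CPM in chow A, B and C and 32.3 CPM in chow D. On the log2 scale it changed by -2.73 without the 2 livers (adjusted p 0.000419 by edgeR) and -1.80 with all 19 (adjusted p 0.124). Cyp51 had 21.0 to 46.8 CPM, median 31.7, and 224 CPM in Western diet M, against 181, 183 and 173 CPM in chow A, B and C and 37.4 CPM in chow D. It fell by 2.43 on the log2 scale (adjusted p 0.000406 by edgeR).

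The same order of livers held along the pathway. Fdps, which builds farnesyl diphosphate, had 15.7 to 51.5 CPM in 14 Western diet livers and 183 CPM in M, against 123, 194 and 141 CPM in chow A, B and C and 23.2 CPM in chow D. The change on the log2 scale was -2.43 (SE 0.47, adjusted p 0.00179 by edgeR). Idi1, an isomerase of the isoprene units, changed by -2.52 (adjusted p 0.00207) and Fdft1, squalene synthase, by -2.10 (adjusted p 0.00135). Hmgcs1, the synthase at the head of the pathway, had 90.4 to 267 CPM in 14 Western diet livers, against 508, 1033 and 350.5 CPM in chow A, B and C; it fell by 1.91 (adjusted p 0.00479) but did not pass without chow B. Lss changed by -1.48 (adjusted p 0.000706), Mvk by -1.62 (adjusted p 0.00123), Nsdhl by -2.35 (adjusted p 0.00133) and Dhcr7, the last reductase, by -1.45 (adjusted p 0.00255). Ebp, a sterol isomerase, changed least of those that passed, by -0.37 (adjusted p 0.0235). All 14 Western diet livers were below chow A, B and C for each gene named in this and the previous paragraph.

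**Figure D2:**
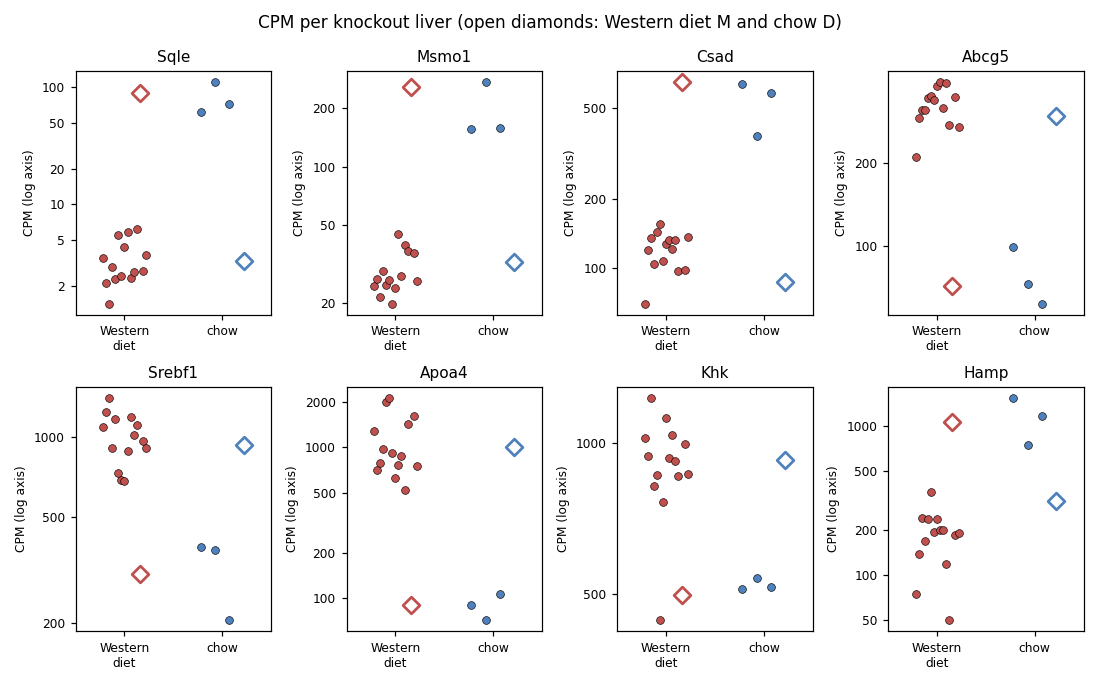
CPM (y axis, log scale) of 8 genes in each knockout liver, Western diet left and chow right; filled points are single livers and open diamonds are Western diet M and chow D. In the 14 other Western diet livers Sqle lay between 1.42 and 6.12 CPM, against 62.2 to 112 CPM in chow A, B and C. Both diamonds lie with the livers of the other diet in all 8 panels.

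Regulators of sterol sensing moved in both directions. Of 20 tested members 4 rose and 4 fell. Insig2, which holds the SREBP precursor in the endoplasmic reticulum, had 452 to 752 CPM in 14 Western diet livers and 187 CPM in M, against 222, 198 and 134 CPM in chow A, B and C and 573 CPM in chow D. It rose by 1.69 on the log2 scale (SE 0.30, adjusted p 0.000758 by edgeR), and passed whichever liver was left out. Its paralogue Insig1, an SREBP target, had 154 to 386 CPM in the 14, against 499, 491 and 393 CPM in chow A, B and C, and fell by 0.82 (adjusted p 0.0237). Srebf2, which encodes SREBP2, fell by 0.51 (adjusted p 0.0262), and Stard4, a carrier of cholesterol between membranes, fell by 0.85 (adjusted p 0.00944). Lipa, the lysosomal lipase that frees cholesterol from its esters, rose by 0.75 (adjusted p 0.00355), and Mbtps1, the protease that makes the first cut in SREBP, rose by 0.47 (adjusted p 0.0125). Scarb1, the receptor for high-density lipoprotein, rose by 0.61 (adjusted p 0.0419). Insig2 aside, the members named here lost their call without at least 1 chow liver.

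Most exporters rose. Of 8 tested sterol and phospholipid exporters 6 rose and none fell, with a median log2 fold change of 0.75. Abcg5, which pairs with Abcg8 as the pump that moves sterols into bile, had 211 to 393 CPM in 14 Western diet livers with a median of 327, and 71.6 CPM in M, against 99.4, 73.0 and 61.9 CPM in chow A, B and C and 296 CPM in chow D. On the log2 scale it changed by 2.07 without the 2 livers (SE 0.39, adjusted p 0.00135 by edgeR) and 1.21 with all 19 (SE 0.40, adjusted p 0.134). Its partner Abcg8 changed by 1.79 (adjusted p 0.00287) and Abcb4, which moves phosphatidylcholine into bile, by 0.79 (adjusted p 0.000678). These 3 passed whichever liver was left out. Abca1 and Abcg1, which load cholesterol onto high-density lipoprotein, changed by 0.71 (adjusted p 0.0325) and 1.02 (adjusted p 0.00714), and Atp8b1, a phospholipid flippase of the canalicular membrane, by 0.62 (adjusted p 0.0336).

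Of 25 tested bile acid genes 4 rose and 1 fell, 20% of the list, and the median was 0.19. The 4 that rose handle the side chain rather than the ring: Scp2 by 0.72 (adjusted p 0.00272 by edgeR), Hsd17b4 by 0.65 (adjusted p 0.00635), Amacr by 0.45 (adjusted p 0.00997) and Acox2 by 0.47 (adjusted p 0.0362). Fgfr4, the hepatocyte receptor for the intestinal signal that restrains bile acid synthesis, fell by 0.42 (adjusted p 0.0485). Slco1a4, an uptake transporter, had 2.91 to 20.6 CPM in 14 Western diet livers, against 27.4, 8.96 and 43.4 CPM in chow A, B and C, and did not pass (log2 fold change -1.49, adjusted p 0.053).

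Of 13 tested genes of taurine and sulfur amino acid metabolism 2 fell and none rose. Csad, cysteine sulfinic acid decarboxylase, makes the taurine that mouse bile acids are coupled to. It had 70.0 to 156 CPM in 14 Western diet livers with a median of 125, and 652 CPM in M, against 637, 379 and 582 CPM in chow A, B and C and 87.1 CPM in chow D. The change on the log2 scale was -2.13 (SE 0.22, adjusted p 2.51e-07 by edgeR) without the 2 livers and -1.43 (SE 0.37, adjusted p 0.0966) with all 19. Cth, which makes cysteine from cystathionine, fell by 0.82 (adjusted p 0.0121). The other 11 tested members of the list did not pass, and the list median was -0.06.

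Of 10 lipogenic regulators 2 rose, Srebf1 and Insig2, and 8 did not pass. Srebf1 had 681 to 1396 CPM in 14 Western diet livers and 304 CPM in M, against 384, 374 and 205 CPM in chow A, B and C and 929 CPM in chow D, a log2 fold change of 1.65 (SE 0.30, adjusted p 0.00104 by edgeR). Of 19 enzymes of fatty acid synthesis, desaturation and elongation 3 rose and none fell, 15.8% of the list, and 16 did not pass. Scd1, the desaturase that makes oleate and the most abundant member, had 9664 to 42028 CPM in 14 Western diet livers, with a median of 20894, and 6591 CPM in M, against 6840.1, 5195 and 2922 CPM in chow A, B and C and 26197 CPM in chow D. It changed by 2.18 (SE 0.46, adjusted p 0.00301), and Srebf1 and Scd1 passed whichever liver was left out. Fads2, a desaturase of polyunsaturated fatty acids, changed by 0.93 (adjusted p 0.0266), and Hsd17b12, an elongation reductase, by 0.63 (adjusted p 0.00527). Acaca, which makes malonyl-CoA, did not pass (log2 fold change 1.09, adjusted p 0.0504), nor did Thrsp, a lipogenic cofactor (1.13, adjusted p 0.107).

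Of 22 genes of triglyceride and phospholipid assembly 5 rose and 1 fell. Mfsd2a, a carrier of lysophosphatidylcholine, had 25.6 to 127 CPM in 14 Western diet livers and 9.93 CPM in M, against 9.62, 13.8 and 16.6 CPM in chow A, B and C and 85.7 CPM in chow D, and changed by 2.54 (SE 0.69, adjusted p 0.0146 by edgeR). Agpat3 and Agpat2, which add the second acyl chain, changed by 0.63 (adjusted p 0.00302) and 0.59 (adjusted p 0.00464). Pcyt1a of phosphatidylcholine synthesis rose by 0.69 (adjusted p 0.0213), while Pcyt2 of phosphatidylethanolamine synthesis fell by 0.54 (adjusted p 0.0336). None of the 6 kept its call in every fit with 1 more liver left out.

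Of 18 lipid droplet genes 6 rose, none fell and 12 did not pass, with a median of 0.62. Mgll, monoglyceride lipase, had 309.9 to 499 CPM in 14 Western diet livers and 217 CPM in M, against 186, 189.5 and 208 CPM in chow A, B and C and 350.5 CPM in chow D. It changed by 1.04 (SE 0.18, adjusted p 0.000758 by edgeR) and passed whichever liver was left out. Cidec, which fuses droplets and marks fatty liver in mice, had 5.94 to 104 CPM in the 14 with a median of 27.4, against 5.91, 6.51 and 6.87 CPM in chow A, B and C and 28.6 CPM in chow D; the lowest Western diet liver lay among the chow livers. It changed by 2.71 (SE 0.84, adjusted p 0.0285). Plin2, the main droplet coat of hepatocytes, changed by 0.96 (adjusted p 0.00994), Plin5 by 0.56 (adjusted p 0.00667), Hsd17b11 by 0.99 (adjusted p 0.00344) and Cideb by 0.60 (adjusted p 0.00344). Of the 6, Mgll alone kept its call in every fit with 1 more liver left out.

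Among genes of fatty acid uptake 5 of 18 rose and 1 fell. Fabp2, a fatty acid carrier best known from intestine, had 128 to 258 CPM in 14 Western diet livers, against 59.8, 75.9 and 50.8 CPM in chow A, B and C and 171 CPM in chow D, and changed by 1.64 (SE 0.38, adjusted p 0.00561 by edgeR). Lpl, lipoprotein lipase, changed by 1.26 (adjusted p 0.012), and the acyl-CoA synthetases Slc27a2 and Slc27a4 by 0.76 (adjusted p 0.00609) and 0.65 (adjusted p 0.00896). Fabp5, a carrier also listed with macrophages, had 3.40 to 52.7 CPM in the 14, against 30.9, 91.1 and 52.0 CPM in chow A, B and C, and fell by 1.67 (adjusted p 0.044). Of 18 apolipoprotein and lipoprotein assembly genes 3 rose and 1 fell. Apoa4, an apolipoprotein induced in fatty mouse liver, had 518 to 2124 CPM in 14 Western diet livers and 90.1 CPM in M, against 89.2, 71.5 and 106 CPM in chow A, B and C and 1007 CPM in chow D. On the log2 scale it changed by 3.64 without the 2 livers (SE 0.70, adjusted p 0.00178) and 1.70 with all 19 (SE 0.68, adjusted p 0.18). Mttp, which loads lipid onto nascent lipoproteins, changed by 0.74 (adjusted p 0.00306), and Apoc3, an inhibitor of lipolysis, by -0.38 (adjusted p 0.0449).

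Of 19 sphingolipid enzymes 5 rose and none fell. Smpd3, a neutral sphingomyelinase, had 4.60 to 23.8 CPM in 14 Western diet livers and 0.621 CPM in M, against 0.315, 0.679 and 1.36 CPM in chow A, B and C and 7.07 CPM in chow D. The change on the log2 scale was 3.78 (SE 0.71, adjusted p 0.00135 by edgeR). Asah2, a neutral ceramidase, had 18.4 to 30.6 CPM in the 14, against 12.5, 13.6 and 12.4 CPM in chow A, B and C and 22.4 CPM in chow D, and changed by 0.95 (SE 0.14, adjusted p 0.000205). Both passed whichever liver was left out. The others were Sgms1, Sptlc2 and Kdsr of sphingolipid synthesis, with changes of 0.69 (adjusted p 0.0213), 0.49 (adjusted p 0.0256) and 0.54 (adjusted p 0.0462).

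**Figure D3:**
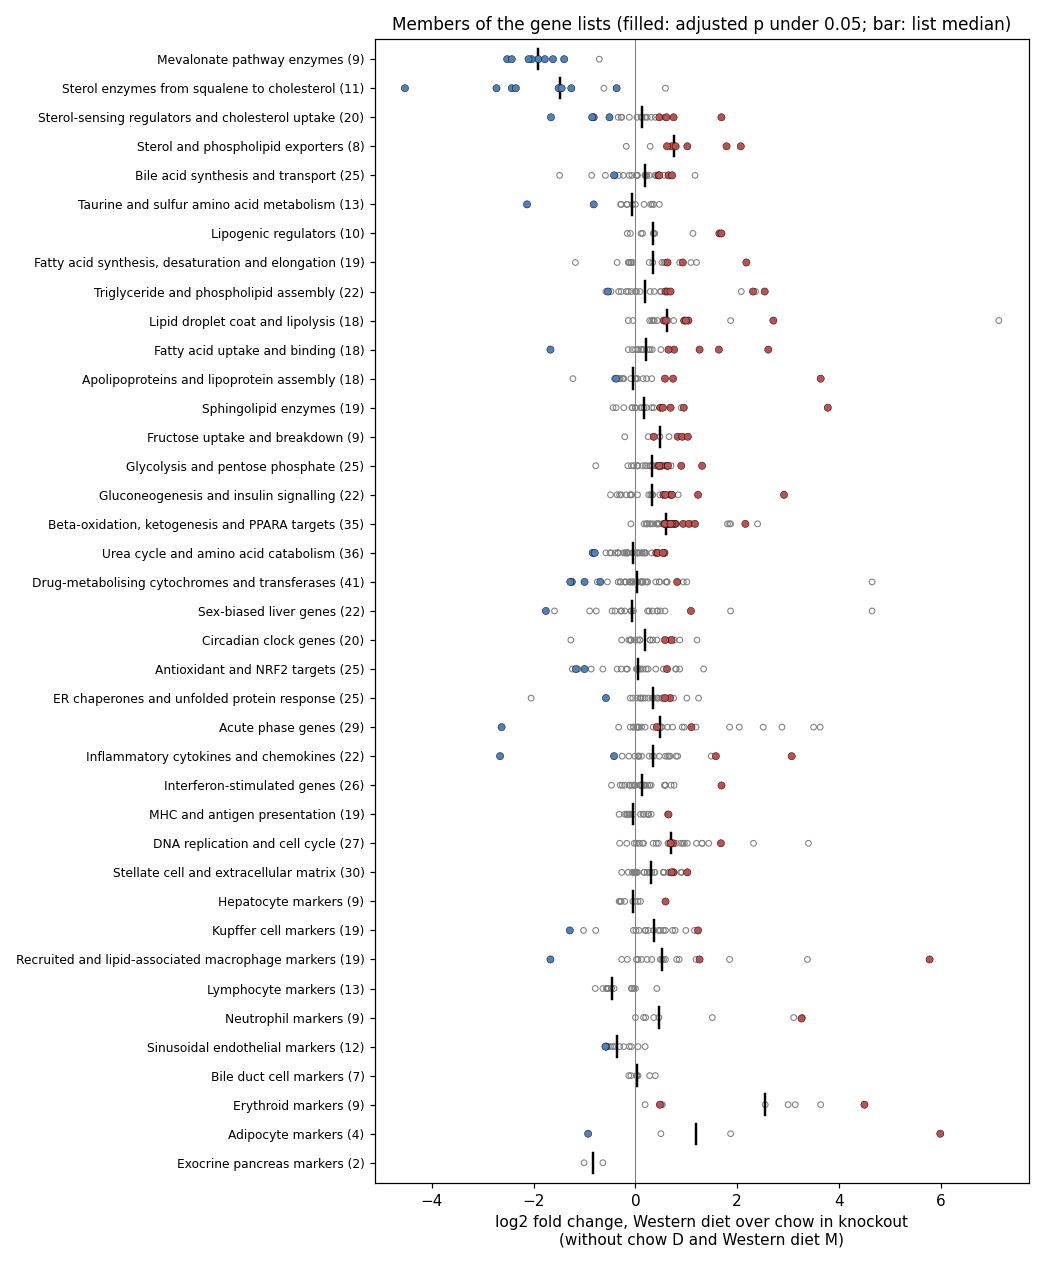
Log2 fold change of Western diet over chow in knockout livers without chow D and Western diet M (x axis), 1 row for each gene list with its number of tested members, 1 point a gene; filled points had an adjusted p under 0.05 and bars are list medians. The 2 cholesterol synthesis lists lie furthest to the left, with medians of -1.91 and -1.48, and the erythroid list furthest to the right, at 2.55, with 2 of 9 members filled.

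Of 9 genes of fructose uptake and breakdown 4 rose, none fell and 5 did not pass, and the median was 0.48. Khk, ketohexokinase, had 445 to 1229 CPM in 14 Western diet livers with a median of 928, and 499 CPM in M, against 513, 539.5 and 518 CPM in chow A, B and C and 927 CPM in chow D. Of the 14, 13 were above chow A, B and C and 1 was below. On the log2 scale it changed by 0.83 (SE 0.18, adjusted p 0.00354 by edgeR). Tkfc, which phosphorylates glyceraldehyde, changed by 1.03 (adjusted p 0.00464) and Sord, which turns sorbitol into fructose, by 0.36 (adjusted p 0.0399).

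Of 25 genes of glycolysis and the pentose phosphate pathway 7 rose, none fell and 18 did not pass. Ldha, lactate dehydrogenase, had 979 to 1332 CPM in 14 Western diet livers, against 804, 476 and 615 CPM in chow A, B and C and 953 CPM in chow D. It changed by 0.90 (SE 0.15, adjusted p 0.000596 by edgeR) and passed whichever liver was left out. Pklr, the liver pyruvate kinase and a target of the carbohydrate sensor ChREBP, had 191 to 741 CPM in the 14, against 154, 249 and 224 CPM in chow A, B and C and 476 CPM in chow D, and changed by 1.31 (SE 0.37, adjusted p 0.0178). The 5 others were Gpi1, Pgam1, Pfkl, Eno1 and Gapdh, with changes between 0.45 and 0.64. Of 22 genes of gluconeogenesis and insulin signalling 6 rose, none fell and 16 did not pass. Pcx, pyruvate carboxylase, had 510.1 to 1056 CPM in the 14, against 392, 309 and 288 CPM in chow A, B and C and 801 CPM in chow D, and changed by 1.23 (SE 0.23, adjusted p 0.00104). Slc2a4, the insulin-regulated glucose transporter of muscle and fat, stood at 1.16 to 5.31 CPM in the 14, against 0.189, 0.543 and 0.254 CPM in chow A, B and C and 2.81 CPM in chow D, a change of 2.92 (SE 0.84, adjusted p 0.019). Fbp1, Pygl, Gys2 and Slc37a4 rose by 0.55 to 0.72.

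Of 35 members of the list for beta-oxidation, ketogenesis and PPARA targets 14 rose, none fell and 21 did not pass; 34 had a positive log2 fold change, and the median was 0.60. Cpt1a, which gates the entry of fatty acids into mitochondria, had 257 to 482 CPM in 14 Western diet livers and 190.2 CPM in M, against 184, 177 and 174 CPM in chow A, B and C and 359.5 CPM in chow D. It changed by 0.94 (SE 0.22, adjusted p 0.00576 by edgeR). Vnn1, a pantetheinase under PPARA, had 19.6 to 144 CPM in the 14, against 22.1, 12.8 and 13.4 CPM in chow A, B and C, and changed by 2.16 (SE 0.70, adjusted p 0.0359). Hadh, Acads, Hadha and Ehhadh of the oxidation spiral changed by 0.77, 0.63, 0.59 and 1.05. None of the 14 kept its call in every fit with 1 more liver left out, and without chow B none of those named here passed.

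Of 36 genes of the urea cycle and amino acid catabolism 4 rose and 2 fell, with a median of -0.04. Agxt, which turns glyoxylate into glycine, had 108 to 245 CPM in 14 Western diet livers, against 431.4, 272 and 267 CPM in chow A, B and C and 226 CPM in chow D, and fell by 0.80 (adjusted p 0.0114 by edgeR). Got1, the cytosolic aspartate transaminase, fell by 0.84 (adjusted p 0.0395), while its mitochondrial partner Got2 rose by 0.57 (adjusted p 0.00608). Of 41 drug-metabolising genes 1 rose and 4 fell. Cyp1a2, a pericentral cytochrome that oxidises caffeine, had 255 to 743 CPM in the 14 and 1018 CPM in M, against 930.4, 1248 and 977 CPM in chow A, B and C and 519 CPM in chow D, a change of -1.0 (SE 0.24, adjusted p 0.00573). The carboxylesterases Ces3b and Ces2a fell by 1.28 (adjusted p 0.0129) and 0.69 (adjusted p 0.0129), and Cyp2c55 fell by 1.25 (adjusted p 0.0227). Ugt1a1, which conjugates bilirubin, rose by 0.82 (adjusted p 0.0289). Of 20 clock genes 2 rose and none fell; Hlf was one of them, with a rise of 0.58 (adjusted p 0.0426).

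Of 22 sex-biased liver genes, with all mice male, 1 rose and 1 fell. Serpina1e, of the alpha-1-antitrypsin family of protease inhibitors, had 349 to 7145 CPM in 14 Western diet livers and 6736 CPM in M, against 8822, 7855 and 11136 CPM in chow A, B and C and 679 CPM in chow D, and fell by 1.76 (SE 0.59, adjusted p 0.0395 by edgeR). It belongs to a family of near-identical copies whose reads the counting could split, so its level is uncertain. Of 25 antioxidant genes 1 rose and 2 fell, Gsta4 by 1.17 (adjusted p 0.0215) and Gstp1 by 1.00 (adjusted p 0.0432). Gstp1 too has a near-identical paralogue. Of 25 genes of the endoplasmic reticulum stress response 2 rose and 1 fell. The transcription factor Atf4 fell by 0.58 (adjusted p 0.0213 by edgeR), and the sensor Atf6 rose by 0.58 (adjusted p 0.0162).

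Hamp, which encodes the iron hormone hepcidin, fell. It had 49.7 to 360.4 CPM in 14 Western diet livers with a median of 193, and 1065 CPM in M, against 1552, 754 and 1176 CPM in chow A, B and C and 316 CPM in chow D. The change on the log2 scale was -2.63 without the 2 livers (SE 0.43, adjusted p 0.000451 by edgeR) and -1.96 with all 19 (SE 0.49, adjusted p 0.0966), and it passed whichever of the 17 livers was left out. It was the 1 member of 29 acute phase genes that fell. Crp and Serpina3m rose, by 0.42 (adjusted p 0.0496) and 1.10 (adjusted p 0.00567), and the list median was 0.48. Lcn2, lipocalin, spread widely, with 3.34 to 211 CPM in the 14 and 3.03 CPM in M, against 3.15, 3.94 and 2.88 CPM in chow A, B and C and 4.64 CPM in chow D. It was above chow A, B and C in 13 of the 14, but its log2 fold change of 3.63 had an SE of 1.87 and did not pass (adjusted p 0.185).

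Of 22 cytokines and chemokines 2 rose and 2 fell, 18.2% of the list. Cxcl13, a B cell chemokine, had 0.0697 to 0.851 CPM in 14 Western diet livers, against 1.07, 5.02 and 1.53 CPM in chow A, B and C and 0.216 CPM in chow D, and fell by 2.66 (adjusted p 0.00588 by edgeR). The interleukin gene Il18 fell by 0.42 (adjusted p 0.0226). Tlr4, the receptor for bacterial lipopolysaccharide, had 0.828 to 2.13 CPM in the 14, against 0.692, 0.407 and 0.17 CPM in chow A, B and C and 1.73 CPM in chow D, and rose by 1.58 (adjusted p 0.0213). Of 26 interferon-stimulated genes 1 rose, Ifi27l2b by 1.69 (adjusted p 0.0284), and of 19 antigen presentation genes 1 rose, Tap1. That peptide transporter had 51.2 to 76.7 CPM in the 14, against 47.0, 44.0 and 36.1 CPM in chow A, B and C, and changed by 0.64 (SE 0.13, adjusted p 0.00255). Of 27 genes of replication and the cell cycle 4 rose and none fell. Mcm2, Mcm3 and Mcm4 of the replicative helicase rose by 0.70 (adjusted p 0.0361), 0.74 (adjusted p 0.0354) and 0.69 (adjusted p 0.0256), and the cell cycle inhibitor Cdkn1a by 1.68 (adjusted p 0.0385).

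Markers of other liver cells were read beside these changes. In bulk tissue fewer cells of a type and less RNA per cell cannot be told apart. Of 12 sinusoidal endothelial markers none rose and 2 fell, the median was -0.36, and their summed level was 258 to 573 CPM in 14 Western diet livers and 673 CPM in M, against 477, 583 and 578 CPM in chow A, B and C and 600 CPM in chow D. Ehd3 had 25.7 to 57.1 CPM in the 14 and 83.6 CPM in M, against 61.5, 78.7 and 66.3 CPM in chow A, B and C and 66.9 CPM in chow D, a change of -0.59 (adjusted p 0.0178 by edgeR). Clec4g had 26.9 to 56.6 CPM in the 14, against 59.2, 62.9 and 67.1 CPM in chow A, B and C and 61.5 CPM in chow D, a change of -0.57 (adjusted p 0.0373). For both genes chow D thus stood with its own diet. Neither passed without chow B, nor without chow C.

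Of 19 Kupffer cell markers Cd5l rose by 1.23 (adjusted p 0.0403 by edgeR), Id3 fell by 1.29 (adjusted p 0.0121) and 17 did not pass, with a median of 0.36. Their sum was 628 to 1342 CPM in 14 Western diet livers, against 845, 828 and 1109 CPM in chow A, B and C. Of 19 markers of recruited and lipid-associated macrophages Lpl and Mmp12 rose and Fabp5 fell. Mmp12, a macrophage elastase, was at 0 to 16.0 CPM in the 14, against 0.0629, 0 and 0 CPM in chow A, B and C and 1.24 CPM in chow D; its log2 fold change of 5.78 (SE 1.97, adjusted p 0.0438) rests on chow livers with almost no reads. Of 30 stellate cell and matrix genes Col4a2, Lrat and Rgs5 rose, by 0.75 (adjusted p 0.0232), 1.02 (adjusted p 0.0138) and 0.71 (adjusted p 0.0287), and none fell. No member passed among 13 lymphocyte and 7 bile duct markers, and 1 of 9 hepatocyte markers rose. Of 9 neutrophil markers Elane rose by 3.26 (adjusted p 0.0155), with 0.142 to 1.20 CPM in the 14, against 0.0629, 0 and 0.0848 CPM in chow A, B and C. Of 4 tested adipocyte markers 1 rose, 1 fell and 2 did not pass. Cfd, the complement factor adipsin of adipocytes, had 0.377 to 159.7 CPM in the 14, against 0.377, 1.43 and 0.509 CPM in chow A, B and C and 31.2 CPM in chow D, and rose by 5.99 (adjusted p 0.037). Adrb3, the beta-3 adrenergic receptor, had 10.2 to 40.5 CPM in the 14 and 56.3 CPM in M, against 32.0, 59.2 and 20.7 CPM in chow A, B and C and 26.5 CPM in chow D, and fell by 0.93 (adjusted p 0.0389). Fabp4, a fatty acid carrier, did not pass, with 11.1 to 32.6 CPM in the 14, against 10.9, 19.9 and 12.6 CPM in chow A, B and C. Of 12 exocrine pancreas genes 5 had no read in any of the 19 livers and the 2 that were tested did not pass.

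Blood transcripts divided the Western diet livers. Of 9 erythroid markers 2 rose, with a list median of 2.55. Hbb-bt, a beta globin, was at 0.377, 0.0963, 0.270 and 0.613 CPM in Western diet H, L, N and O, at 0.138 CPM in M and at 1.13 to 7.84 CPM in the other 10, against 0, 0.204, 0.254 and 0.108 CPM in chow A to D. It changed by 4.50 (SE 1.58, adjusted p 0.0496 by edgeR) and lost its call without any of 12 single livers. Hba-a1, an alpha globin, lay at 0.867 to 2.50 CPM in the same 5 Western diet livers and at 4.85 to 34.0 CPM in the rest, against 1.20, 2.51, 1.78 and 0.702 CPM in chow A to D, and did not pass (log2 fold change 3.0, adjusted p 0.0898). Alas2, an erythroid enzyme of haem synthesis, rose by 0.48 (adjusted p 0.0265). The part of blood transcripts in other results was not tested.

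**Figure D4:**
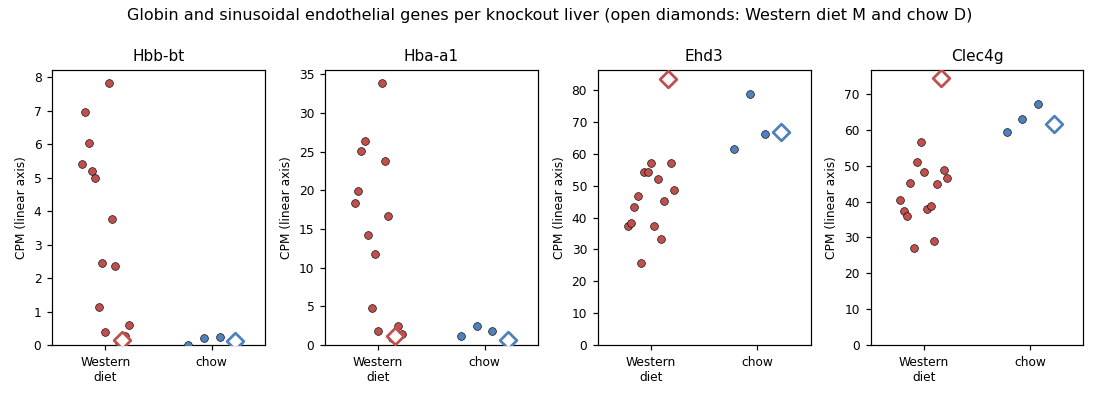
CPM (y axis, linear scale) of 2 globin genes and 2 sinusoidal endothelial genes in each knockout liver, Western diet left and chow right; filled points are single livers and open diamonds are Western diet M and chow D. Hbb-bt reaches 7.84 CPM in Western diet livers but is under 1 CPM in 5 of the 15, and chow D stays with the other chow livers for Ehd3 (66.9 CPM) and Clec4g (61.5 CPM).

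The largest changes outside these lists, among genes of at least 1 CPM on average, were partly in genes with unusual ranges. Ntrk2, the receptor for brain-derived neurotrophic factor, had 2.46 to 60.5 CPM in 14 Western diet livers and 1.38 CPM in M, against 0.818, 0.882 and 0.678 CPM in chow A, B and C and 3.83 CPM in chow D. On the log2 scale it changed by 4.83 without the 2 livers (SE 1.09, adjusted p 0.00484 by edgeR) and 3.70 with all 19 (SE 0.92, adjusted p 0.0966). Sult1e1, the oestrogen sulfotransferase, had 0.389 to 185 CPM in the 14 with a median of 7.32, against 0.377, 0 and 0.0848 CPM in chow A, B and C and 0.432 CPM in chow D, a change of 6.80 (SE 2.20, adjusted p 0.035). Ephb2, a receptor for ephrins, and Themis, best known from thymocytes, rose by 4.09 (adjusted p 0.0261) and 3.69 (adjusted p 0.0276).

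Among the falls, Enho, which encodes the secreted peptide adropin, had 0.376 to 8.48 CPM in 14 Western diet livers with a median of 1.64, and 20.3 CPM in M, against 41.3, 18.2 and 34.5 CPM in chow A, B and C and 1.29 CPM in chow D. The change on the log2 scale was -3.68 (SE 0.74, adjusted p 0.00246 by edgeR). Slc13a2, a carrier of dicarboxylates such as citrate cycle intermediates, had 0 to 1.11 CPM in the 14, against 5.91, 6.04 and 1.10 CPM in chow A, B and C, a change of -3.59 (adjusted p 0.00116). Srgap3, a GTPase-activating protein, had 0.209 to 1.81 CPM in the 14, against 15.3, 5.50 and 10.3 CPM in chow A, B and C, a change of -3.24 (adjusted p 0.000147). Chrna4, a subunit of the neuronal acetylcholine receptor, had 1.59 to 37.6 CPM in the 14, against 40.7, 389 and 15.7 CPM in chow A, B and C, and its change of -3.70 (adjusted p 0.00865) did not pass without chow B. Enho, Slc13a2, Srgap3 and Ntrk2 passed whichever liver was left out.

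The 2 livers that stood with the other diet did so across most genes that changed. Of the 449 genes that passed at 2-fold or more, chow D was nearer the mean of the 14 Western diet livers in 93.3%, and Western diet M was nearer the mean of chow A, B and C in 78.0%. These counts describe livers chosen for that likeness. They did not do so for all genes. For Ehd3 and Clec4g, chow D stayed with the chow livers. For the globins and Sult1e1, chow D was low like chow A, B and C. Low values also occurred on Western diet, so the globins and Sult1e1 do not place chow D. For Ces3b Western diet M, at 585 CPM, lay among the other Western diet livers at 198 to 761 CPM, against 883, 766 and 1334 CPM in chow A, B and C. Of 441 of these genes tested in both fits, all 441 had a smaller fold change with all 19 livers than without the 2, as the choice of the 2 would give.

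No gene's response to diet passed a test for a difference between knockout and wildtype. The interaction was called in 0 of 15296 genes (0%) with all 39 libraries by edgeR, with 285 genes at an unadjusted p under 0.05 (1.86%), and DESeq2 also called 0. Without the 2 livers it was called in 0 of 15539 genes, with 746 at an unadjusted p under 0.05 (4.8%). A test that finds none does not show that the genotypes responded alike. In wildtype with all libraries, 118 genes were higher on Western diet (0.771%) and 94 lower (0.615%). Of the 2288 genes called in the knockouts without the 2 livers, 154 were among these 212 (1.39% of genes tested), which is 6.73% of the knockout list and 72.6% of the wildtype list. The sign was the same in both genotypes for 97.5% of the knockout list, against 75.1% of all genes tested. This wildtype list kept Western diet A and chow A, which lay between the diets, so the 2 lists are not alike. With those 2 left out as well, 2657 of 15461 genes passed in the knockouts (17.2%) and 1339 in wildtype (8.66%). The 902 shared genes were 33.9% of that knockout list and 67.4% of that wildtype list. All 4 livers stood out by diet genes, so these shares are no independent support.

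Side by side, 5 lipid and taurine genes named above had log2 fold changes of the same sign in both genotypes. Sqle changed by -4.53 in the knockouts without the 2 livers and by -2.89 in wildtype as labelled (adjusted p 0.0562 by edgeR), Csad by -2.13 and -1.83 (adjusted p 0.0198), Abcg5 by 2.07 and 1.61 (adjusted p 0.0303), Apoa4 by 3.64 and 3.26 (adjusted p 0.0198), and Srebf1 by 1.65 and 1.38 (adjusted p 0.0198). Wildtype too had livers between the diets, and without those 2 the wildtype value of Sqle was -4.25. Some other named genes had a different sign in wildtype. Of the 441 genes at 2-fold or more tested in both fits, 17 had the opposite sign in wildtype as labelled. They included Mmp12 (5.78 in the knockouts without the 2 livers, -0.41 in wildtype with an adjusted p of 0.877 by edgeR). Tlr4 (1.58 and -0.43, wildtype adjusted p 0.536) and Cdkn1a (1.68 and -0.09, wildtype adjusted p 0.943) were also among them. These wildtype changes did not pass, so they do not show a response in the other direction. The smallest interaction p belonged to BC030867, whose knockout change of -4.08 stood against 2.39 in wildtype. It had 0 to 0.397 CPM in 14 Western diet knockouts, against 8.05, 0.271 and 7.29 CPM in chow A, B and C and 0.216 CPM in chow D, so that 2 chow livers carried it. Smim14 changed by 0.34 in the knockouts without the 2 livers, with all 14 Western diet livers at 95.4 to 123 CPM, against 78.2, 86.0 and 86.8 CPM in chow A, B and C, and by -0.06 in wildtype. Star, which moves cholesterol into mitochondria, changed by -0.55 in the knockouts and 0.26 in wildtype. For these 3 genes the adjusted interaction p with all libraries was 1.00 by edgeR.

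**Figure D5:**
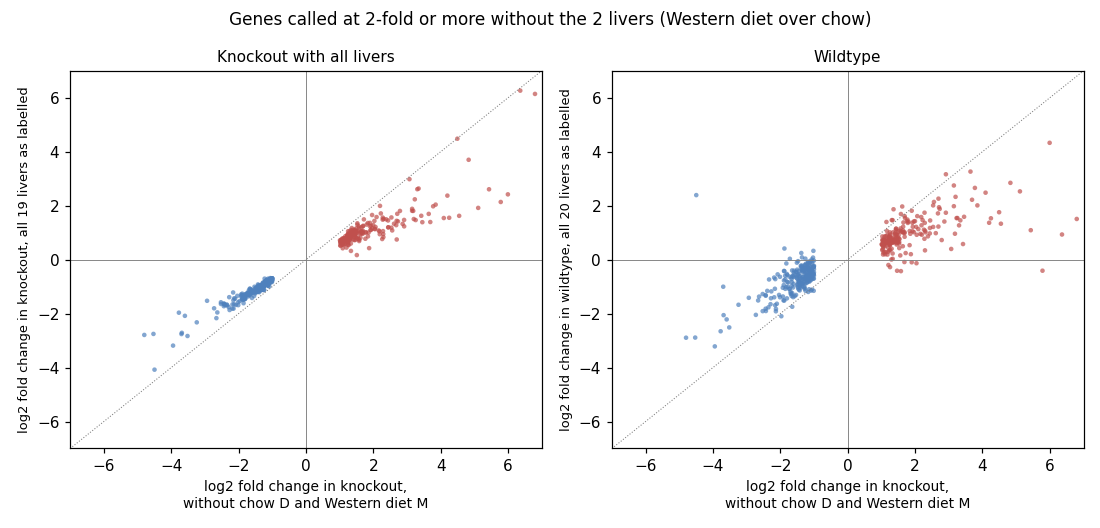
Log2 fold change of Western diet over chow for genes that passed at 2-fold or more without the 2 livers (x axis, knockout without the 2), against the knockout with all 19 livers as labelled (left) and the wildtype livers as labelled (right), 1 point a gene; red rose and blue fell. All 441 genes drawn lie nearer 0 with all 19 livers, and 96.1% have the same sign in wildtype.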

How the data were processed

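RNA from snap-frozen liver was sequenced in pairs on a NovaSeq instrument after NEBNext Ultra library preparation, per the labels' protocols. The authors deposited raw counts per Ensembl gene, 1 column for each of 39 libraries; STAR 2.7.8a, featureCounts 2.0 and GRCm39 are named in the submitters' processing notes, and the annotation release and strand setting are not given in the sources used here. Without a known strand setting, reads of overlapping antisense genes cannot be told apart. Of 55416 genes 52083 matched a symbol, with 99.4% of counts.

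From these counts edgeR 4.0.16 (R 4.3.3) fitted 1 quasi-likelihood model over the 4 groups of genotype and diet (filterByExpr with a minimum count of 10 and a minimum total of 15, TMM scaling, robust). The contrast was Western diet minus chow within the knockouts, with Benjamini-Hochberg adjustment over all genes tested and a threshold of 0.05. SE values of the log2 fold change were worked back from the test, as its size divided by the square root of the F value. CPM are TMM-scaled. No library pair within a diet differed by as little as sampling noise (closest pair, chi-square per gene 10.4). Alternatives were RLE scaling, no filter, DESeq2 1.42.0, limma 3.58.1 voom, knockout libraries alone, the replicate letter as a block, and each knockout library left out. The fit without Western diet M and chow D was listed among them, and its own alternatives were added after its result was seen. Scripts were tested on simulated counts.

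The members, the gene lists and the 2 livers to leave out were chosen with earlier results of these data known. The genes named are the 8 largest rises and falls in each fit with a mean of at least 1 CPM and a proper symbol, list members that passed or were among the 4 with the smallest p of their list, and the 8 smallest interaction p-values; a few of these are given only within counts. Levels are not compared between genes, since CPM are not per length. Labels do not say that mice were housed apart, so p-values measure the spread between these livers. The precision of a low CPM is limited by counting.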

Additional observations from a re-analysis of the deposited data

Results flagged for a closer look

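The 4 chow knockouts were searched in 148 genes named in the text. In 13 of them 1 library lay far from the other 3 by Dixon's 95% criterion, and chow D was that library in each. Chance flags about 1 group in 20. Dixon's ratio, the gap to the nearest library divided by the whole range of log2 CPM, was above Dixon's critical value for 4 libraries for Adgrf1 (0.861), Cyp51 (0.965), Sqle (0.833), Abcb4 (0.865), Apoa4 (0.853), Asah2 (0.846), Khk (0.916), Serpina1e (0.875), Ifi27l2b (0.834), Mmp12 (0.833), Ntrk2 (0.859), Cidec (0.906) and Cpt1a (0.921). On the diet scale the ratio for chow D was 0.881. These genes were mostly named because they differ by diet, and chow D had been singled out by such genes, so the flags are not separate observations. The ratio was not computed for the 15 Western diet livers, a group too large for the criterion. Whether chow D was mislabelled was not tested.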

How the results depend on the processing

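With all libraries as labelled, 0 genes were higher and 1 lower (0% and 0.00654% of those tested). Higher and lower genes made up 7.99% and 6.78% without Western diet M and chow D (1242 and 1054 genes), 9.69% and 7.5% without these and the 2 wildtype livers between the diets (1498 and 1159), 1.07% and 0.431% by DESeq2 (164 and 66), and 2.65% and 2.61% by limma voom. Without a filter and in the 19 knockouts alone 0 genes were higher and 0 lower, and with RLE scaling 0 and 1. Leaving out 1 knockout liver gave 0% to 4.89% higher and 0% to 4.17% lower genes; the highest shares came without chow D (760 and 648 genes), then without Western diet M (203 and 223). Adgrf1 lost its call in 14 of the 19 fits with 1 liver left out.

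Without the 2 livers, the 1242 higher and 1054 lower genes became 639 (1.77%) and 679 (1.88%) without a filter on low counts, where more genes were tested; the other whole-set settings ranged from 973 to 1602 higher and from 862 to 1163 lower. Leaving out 1 more liver gave 1.08% to 9.35% higher (172 to 1453 genes) and 1.39% to 7.87% lower (221 to 1222), the lowest without chow B and then without chow C (531 and 441 genes). Of 160 rule-named genes that passed, 40 kept their call in all 17 such fits, 112 lost it without chow B, 77 without chow C, 58 without chow A and 24 without a Western diet liver. The interaction stayed at 0 genes in every setting run.

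The replicate letter as a block gave 51 higher (0.347%) and 55 lower genes (0.375%) with all knockouts, and 1368 (9.21%) and 1036 (6.97%) without the 2 livers. Letters E to O occur only in Western diet knockouts, so a comparison within letters rests on A to D. Without the 2 livers it rests on A to C. The letters are not known to pair mice: same-letter correlations of deviations were -0.0478, -0.0821, 0.0929 and 0.19 for A to D, and no chow liver correlated best with its own letter. Depth limits values under about 1 CPM, such as those of Mmp12, Ccl3 and Slc2a4 in chow A, B and C. With 4 chow livers, 3 after chow D is left out, the spread on chow is known from few livers.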

Other observations

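Further list members that passed without Western diet M and chow D, and were not described above, are given as values. Gpat3, an acyltransferase that starts triglyceride assembly, had 0.66 to 10.4 CPM in 14 Western diet livers, against 1.20, 0.271 and 1.10 CPM in chow A, B and C and 3.02 CPM in chow D, a log2 fold change of 2.31 (SE 0.69, adjusted p 0.0237 by edgeR). Ces2e, a carboxylesterase, had 183 to 449 CPM in the 14, against 157, 119 and 119.5 CPM in chow A, B and C and 314 CPM in chow D, and changed by 1.09 (adjusted p 0.00779). Acaa1b, a peroxisomal thiolase, had 1731 to 5539.7 CPM in the 14, against 1875, 1803 and 899 CPM in chow A, B and C and 3654 CPM in chow D, and changed by 1.17 (adjusted p 0.0285). Ccl3, a chemokine, had 0.0697 to 1.33 CPM in the 14, against 0, 0 and 0.17 CPM in chow A, B and C and 0.054 CPM in chow D, and changed by 3.07 (adjusted p 0.044). Each of the 4 lost its call when a single chow liver was left out.

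Some members spread widely without passing. Selenbp2, a selenium-binding protein, had 40.9 to 1157 CPM in 14 Western diet livers, against 701, 2020.5 and 2294 CPM in chow A, B and C and 173 CPM in chow D (log2 fold change -1.59, adjusted p 0.0676 by edgeR). Plin4, a droplet coat protein of adipocytes, had 16.6 to 143 CPM in the 14, all above chow A, B and C at 15.1, 11.1 and 12.8 CPM (log2 fold change 1.87, adjusted p 0.08). Orm3, an orosomucoid, had 3.69 to 20.2 CPM in the 14, all above chow A, B and C at 0.755, 2.04 and 1.86 CPM (log2 fold change 2.51, adjusted p 0.109).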
